A study of Mus musculus with 12 samples.

Results

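The genes described here are 10 enzymes and subunits that write, copy, remove or read out DNA methylation and the Polycomb mark, and they were chosen by name: Dnmt1, Dnmt3a, Dnmt3b, Uhrf1, Tet1, Tet2, Tet3, Ezh1, Ezh2 and Suz12. All 10 were found among the 55414 gene records of the count table, and all 10 passed the filter on low counts in every comparison. RNA was sequenced from splenic CD4+ T cells of male, wild-type BALB/c mice aged 18 weeks. The mice carried a silk ligature around a maxillary molar (ligature-induced periodontitis, the LIP group) or had none (the CTL group). Cells were taken uncultured on day 0 or after 2 days in culture with anti-TCRbeta and anti-CD28, each at 1 µg/mL, and IL-2 at 10 ng/mL. Each of the 4 groups held 3 libraries, which are named here by group and label number. The question the design poses is whether periodontitis changes CD4+ T cells before and after a stimulus that makes them proliferate. Day 0 and day 2 differ in culture, stimulation and time at once, so these cannot be told apart.

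DNA methylation is laid down on cytosines of CpG sites by DNMT3A and DNMT3B and copied to the new strand at replication by DNMT1, which UHRF1 brings to DNA methylated on the old strand only. TET enzymes oxidize the methyl group and so open the way to its loss. The Polycomb repressive complex PRC2 methylates lysine 27 of histone H3 through its catalytic subunit, EZH2 or EZH1, and needs SUZ12 to hold together. In T cells the DNA methyltransferases and PRC2 are known for keeping lineage genes silent while cells divide and differentiate, and TET enzymes for helping lineage and cytokine genes to be expressed.

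In the GRCm39 annotation (GENCODE M39), Dnmt1 lies on chr9:20817945-20871184 (minus strand), Dnmt3a on chr12:3856007-3964443 (plus), Dnmt3b on chr2:153490861-153529650 (plus) and Uhrf1 on chr17:56610275-56630489 (plus). Tet1 lies on chr10:62640349-62744775 (minus), Tet2 on chr3:133169436-133250900 (minus) and Tet3 on chr6:83339355-83436066 (minus). Ezh1 lies on chr11:101081934-101117315 (minus), Ezh2 on chr6:47507073-47572331 (minus) and Suz12 on chr11:79883891-79925421 (plus). All are protein-coding. Exons of genes on the opposite strand overlap those of 6 members: Dnmt3aos and Dnmt3bos (Dnmt3a and Dnmt3b), Gm42567 (Tet2), Bola3 (Tet3), Cntnap1 and Gm72062 (Ezh1) and Cul1 (Ezh2). The library kit keeps strand, but whether the counting used it is not given in the sources used here, so reads in these overlaps are uncertain. Dnmt3aos had between 3 and 12 counts in a library, Cntnap1 4 to 30, Bola3 117 to 271 and Cul1 431 to 1387.

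The promoters of the 4 members that hold a motif of the E2F family, whose factors are known for S-phase genes, are shown beside those of Ezh1 and Tet1, taken as examples of the 6 that hold none. The 4 that hold it had the largest rises with culture in both groups. Of the 6 without it, Dnmt3a and Tet2 rose in both groups and Dnmt3b in CTL, while Tet1, Tet3 and Ezh1 fell in both. The motifs searched on both strands were TTTCCCGC, TTTGGCGC, TTTCGCGC and TTTGCCGC, in the 300 bases from 250 before to 50 after each RefSeq start. Of 32851 RefSeq promoters, 744 (2.26%) held at least 1 of them, and of 27025 genes with a promoter, 704 (2.6%) did. All 10 members had a promoter in that set. The sequences are from RefSeq, build GRCm38.p6, and run 5′ to 3′ on the gene's strand from 250 bases before the start to 20 bases after it, with the motif in capitals. They cover chr9:20952604-20952873 (Dnmt1, minus strand, the first of 3 promoters by coordinate), chr17:56304063-56304332 (Uhrf1, plus, the second of 2), chr6:47595011-47595280 (Ezh2, minus), chr11:79992856-79993125 (Suz12, plus), chr11:101226444-101226713 (Ezh1, minus) and chr10:62887305-62887574 (Tet1, minus).
Dnmt1: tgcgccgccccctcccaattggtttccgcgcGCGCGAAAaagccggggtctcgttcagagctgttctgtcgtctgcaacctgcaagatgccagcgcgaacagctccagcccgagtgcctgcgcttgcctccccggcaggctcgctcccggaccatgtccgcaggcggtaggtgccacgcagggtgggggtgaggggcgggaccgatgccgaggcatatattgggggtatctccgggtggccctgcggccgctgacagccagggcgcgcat
Uhrf1: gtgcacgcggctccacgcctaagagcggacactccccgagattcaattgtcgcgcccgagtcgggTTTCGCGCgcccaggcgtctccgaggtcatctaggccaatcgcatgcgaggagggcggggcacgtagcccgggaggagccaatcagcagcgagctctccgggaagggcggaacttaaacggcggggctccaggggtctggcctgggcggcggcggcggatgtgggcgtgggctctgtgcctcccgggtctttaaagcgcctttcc
Ezh2: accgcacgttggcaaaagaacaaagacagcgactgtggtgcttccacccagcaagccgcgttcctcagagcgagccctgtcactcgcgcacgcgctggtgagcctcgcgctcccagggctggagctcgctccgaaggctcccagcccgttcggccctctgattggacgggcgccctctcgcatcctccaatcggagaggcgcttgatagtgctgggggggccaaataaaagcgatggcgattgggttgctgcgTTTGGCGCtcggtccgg
Suz12: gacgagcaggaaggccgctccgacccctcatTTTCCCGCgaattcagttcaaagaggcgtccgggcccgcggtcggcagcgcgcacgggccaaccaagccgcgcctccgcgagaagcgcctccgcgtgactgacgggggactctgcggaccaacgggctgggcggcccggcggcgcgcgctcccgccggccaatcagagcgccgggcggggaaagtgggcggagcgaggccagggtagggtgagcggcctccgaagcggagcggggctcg
Ezh1: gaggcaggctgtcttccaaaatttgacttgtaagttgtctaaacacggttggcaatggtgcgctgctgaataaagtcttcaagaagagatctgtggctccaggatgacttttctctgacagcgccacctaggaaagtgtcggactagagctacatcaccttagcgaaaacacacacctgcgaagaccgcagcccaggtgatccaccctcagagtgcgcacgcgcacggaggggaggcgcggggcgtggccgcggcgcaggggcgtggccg
Tet1: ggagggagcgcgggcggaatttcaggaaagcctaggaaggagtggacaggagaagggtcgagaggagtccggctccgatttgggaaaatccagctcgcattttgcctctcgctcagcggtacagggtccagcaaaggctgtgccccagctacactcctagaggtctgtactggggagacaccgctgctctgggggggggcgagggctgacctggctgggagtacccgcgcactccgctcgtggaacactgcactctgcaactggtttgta

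With the first base of the RefSeq start shown as 1, the Dnmt1 motif began at -219 and is TTTCGCGC on the other strand. A second, TTTGGCGC at 34, lies past the bases shown. On the minus strand the other Dnmt1 promoters, chr9:20952960-20953229 and chr9:20959869-20960138, lie upstream of the one shown. Both Dnmt1 motifs are therefore downstream of those other starts. The motif began at -185 in Uhrf1, at 4 in Ezh2 and at -219 in Suz12. These are matches of letters, and no binding was measured. Between 2 CpG sites (the third Dnmt1 promoter) and 57 (Tet2) were counted in the 300 bases, with 31 in Ezh2 and 23 in Ezh1.

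The libraries held between 6249094 and 7845715 counts on day 0 and between 8691745 and 12866751 on day 2, and 3 counts, taken as the upper limit for a gene with none, came to 0.269 to 0.452 CPM (counts scaled to the library's normalized total). This limit covers counting error only. Cd4 and the T-cell genes Cd3d, Cd3e, Cd3g and Cd5, which CD8 T cells also express, summed to between 1570 and 2830 CPM in every library. Cd8a and Cd8b1 summed to 4.43 to 13.2 CPM. Any of the lists for B, myeloid, NK, erythroid and pancreatic acinar cells summed to at most 30.5 CPM. A list of 8 heat shock genes summed to 3050 to 3160 CPM in CTL and 1390 to 1530 in LIP on day 0, and to 4790 to 5540 and 6200 to 6870 on day 2. The library LIP 90 of day 2 stood apart from LIP 96 and LIP 97, with a chi-square per gene of 43.6 and 34.8 against 10.8 between those 2. The authors' own normalized table of day 2 lists, for LIP, only LIP 90 among the labelled libraries, beside 2 LIP libraries that the labels do not hold, whereas LIP 96 and LIP 97 are taken here from the count table. Among the day 2 labels, those of CTL 93 and LIP 96 have anti-CD29 and those of CTL 97 and LIP 97 have anti-CD30 in place of the anti-CD28 of the protocol. The labels do not say that libraries of a group came from separate mice, so p-values measure only the spread between these libraries.

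From day 0 to day 2, all 10 members changed in the CTL group and 9 changed in the LIP group (edgeR's quasi-likelihood test, Benjamini-Hochberg adjusted p under 0.05 over 15475 genes). In CTL, 7 rose and 3 fell, where 35.3% of all genes tested rose and 33.7% fell. In LIP, 6 rose and 3 fell, against 36.6% and 35.2% of all genes. The days did not overlap for 10 members in CTL and 9 in LIP, as for 11339 and 11569 of the 15475 genes. Uhrf1, Ezh2 and Dnmt1 had the largest rises in both groups, Tet1, Ezh1 and Tet3 fell in both, and Dnmt3b rose in CTL without passing the test in LIP. The median log2 fold change of the members was 0.91 in CTL and 0.46 in LIP, against -0.022 and -0.003 over all genes tested. Other scalings, tools and filters called 8 to 10 members in CTL and 7 to 9 in LIP. The values of Tet2, Dnmt3a and Dnmt3b moved with the scaling, as given below, and the members' medians under other scalings were not computed. In these bulk samples a change in the share of cells that express a gene and a change in the RNA per cell cannot be told apart.

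**Figure D1:**
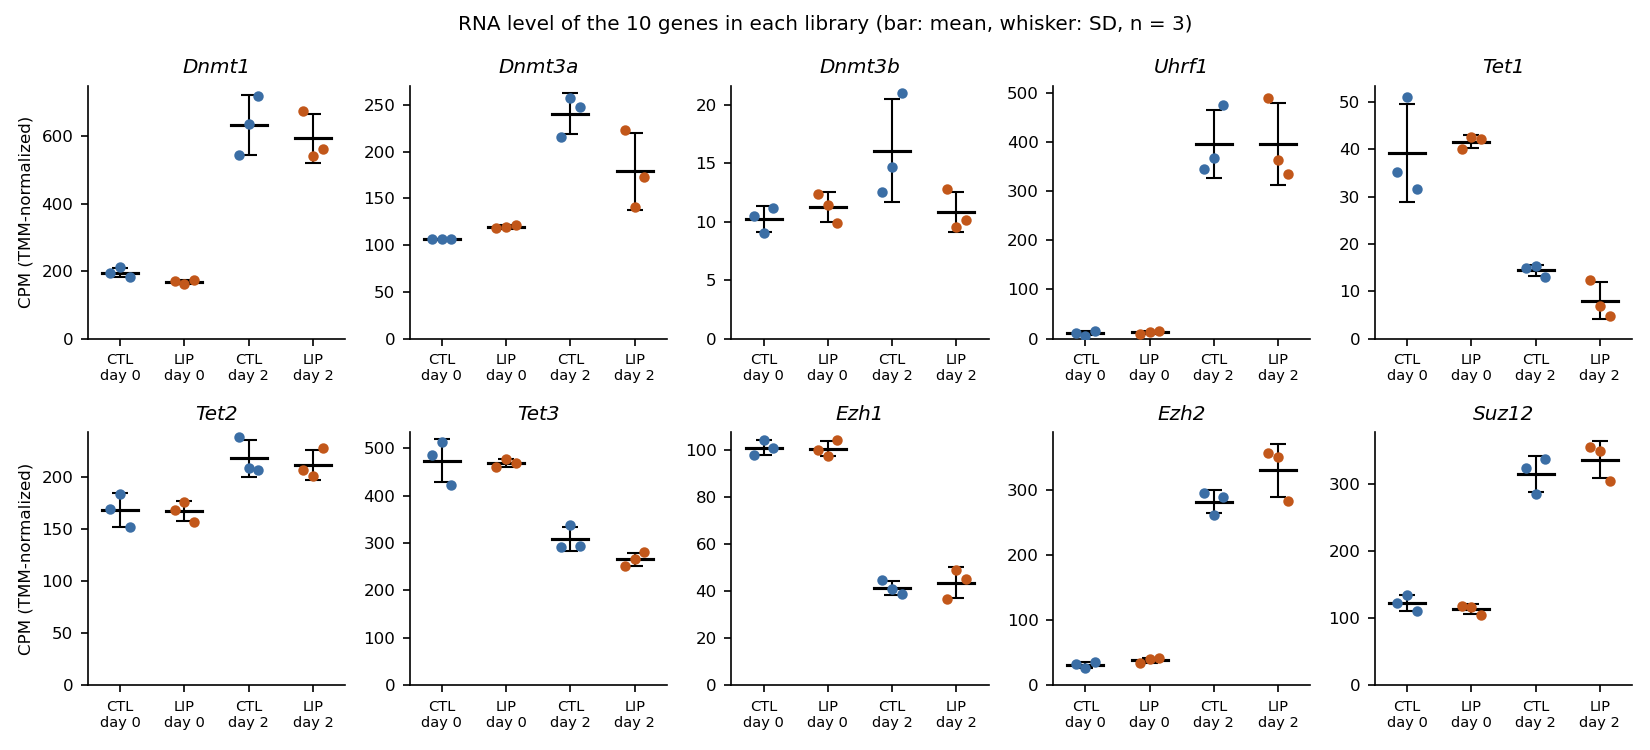
Level of each of the 10 genes in CPM after TMM normalization (y axis, from 0) in each of the 12 libraries by group (x axis); points are libraries, bars the mean and whiskers the SD of 3. Uhrf1 went from 6.02 to 15.5 CPM on day 0 to 335 to 490 CPM on day 2, while Ezh1 went from 97.5 to 104 CPM down to 36.4 to 49 CPM.

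Dnmt1, the maintenance methyltransferase, stood at 194, 211 and 183 CPM in CTL 88, 89 and 94 and at 170, 161 and 173 CPM in LIP 92, 93 and 94 on day 0. After culture the values were 544, 637 and 720 CPM in CTL 92, 93 and 97 and 677, 543 and 563 CPM in LIP 90, 96 and 97. Every library of day 2 was above every library of day 0. The log2 fold change from day 0 to day 2 was 1.69 ± 0.121 (SE, adjusted p = 4.68e-08) in CTL and 1.82 ± 0.122 (adjusted p = 2.24e-08) in LIP, or 3.23-fold and 3.53-fold.

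Uhrf1, which recruits DNMT1 to newly replicated DNA, had the largest rise. It was counted at 12.2, 6.02 and 15.5 CPM in CTL and at 9.92, 12.8 and 15.5 CPM in LIP on day 0. After culture the values were 345, 367 and 475 CPM in CTL and 490, 363 and 335 CPM in LIP. The days did not overlap in either group, and the groups overlapped on both days. The rise was 35.4-fold in CTL (log2 fold change 5.14 ± 0.286, adjusted p = 4.82e-09) and 31.0-fold in LIP (4.95 ± 0.283, adjusted p = 5.48e-09), higher than that of 98.5% and 98.7% of all genes tested.

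Dnmt3a, a de novo methyltransferase, was at 107 CPM in each of the 3 CTL libraries of day 0 and at 118, 119 and 122 CPM in the LIP libraries. On day 2 it reached 216, 258 and 248 CPM in CTL, and 223, 141 and 173 CPM in LIP 90, 96 and 97. It rose in both groups, by 1.17 ± 0.136 on the log2 scale in CTL (adjusted p = 4.79e-06) and by 0.58 ± 0.135 in LIP (adjusted p = 0.00164). Without LIP 90, its rise in LIP was 0.40 on the log2 scale, and under upper-quartile scaling or library totals alone it was 0.26 and 0.22 and did not pass the test.

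Dnmt3b, the other de novo enzyme, had the fewest counts of the 10 over all libraries, with 70 to 185 in each. Its level was 10.5, 9.03 and 11.2 CPM in CTL and 12.4, 11.4 and 9.89 CPM in LIP on day 0. On day 2 it was 12.5, 14.7 and 21 CPM in CTL and 12.8, 9.55 and 10.1 CPM in LIP. CTL 97 held the highest value, and the LIP libraries of both days lay over each other. Dnmt3b rose by 0.65 ± 0.201 on the log2 scale in CTL (adjusted p = 0.011), a call that was lost without CTL 97 (0.41, adjusted p = 0.0689) and under upper-quartile scaling (0.36) or library totals alone (0.46). In LIP its log2 fold change was -0.05, with a 95% interval from -0.49 to 0.39.

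Tet1, a methylcytosine dioxygenase, stood at 35.1, 51 and 31.6 CPM in CTL and at 40, 42.5 and 42.2 CPM in LIP on day 0. It fell on day 2 to 14.8, 15.3 and 13.1 CPM in CTL and to 12.4, 6.93 and 4.66 CPM in LIP 90, 96 and 97, the last being 36 counts. All day 2 values lay below all day 0 values. The log2 fold change was -1.45 ± 0.252 in CTL (adjusted p = 0.00017) and -2.34 ± 0.264 in LIP (adjusted p = 3.01e-06), and without LIP 90 the latter was -2.81.

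Tet3, of the same family, was at 485, 513 and 423 CPM in CTL and 461, 478 and 469 CPM in LIP on day 0. It went down to 292, 338 and 294 CPM in CTL and 252, 265 and 280 CPM in LIP on day 2, with no overlap of the days. Its log2 fold change was -0.62 ± 0.0977 in CTL (adjusted p = 7.28e-05) and -0.82 ± 0.0981 in LIP (adjusted p = 5.19e-06).

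Tet2, the third of the family, moved least among the members that changed in both groups. It was counted at 170, 184 and 152 CPM in CTL and 169, 176 and 157 CPM in LIP on day 0, and at 239, 209 and 207 CPM in CTL and 207, 201 and 228 CPM in LIP on day 2. The days were apart, by 0.37 ± 0.101 on the log2 scale in CTL (adjusted p = 0.00489) and 0.34 ± 0.101 in LIP (adjusted p = 0.00782). This rise depended on the scaling: it was 0.09 and 0.19 in CTL under upper-quartile scaling and library totals alone, and 0.03 and -0.02 in LIP, and passed the test in none of these. Those scalings moved the median log2 fold change of all genes to -0.31 and -0.21 in CTL and to -0.32 and -0.36 in LIP, so that Tet2 stayed above that median in each.

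Ezh2, the PRC2 methyltransferase of dividing cells, had the second largest rise. It stood at 32.2, 25.8 and 35.3 CPM in CTL and at 34, 39.7 and 41.2 CPM in LIP on day 0, and at 295, 262 and 289 CPM in CTL and 357, 351 and 283 CPM in LIP on day 2. The days lay far apart, whereas CTL and LIP overlapped on each day. The rise was 9.08-fold in CTL (log2 fold change 3.18 ± 0.139, adjusted p = 8.35e-10) and 8.63-fold in LIP (3.11 ± 0.137, adjusted p = 8.91e-10), and Ezh2 ranked 52nd and 59th by p among the 15475 genes.

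Ezh1, the paralog known from resting cells, went the other way. On day 0 it was at 97.9, 104 and 101 CPM in CTL and 100, 97.5 and 104 CPM in LIP. With TMM this was the smallest difference between the groups of any member on that day. Under upper-quartile scaling or library totals alone, Tet2 and Tet3 had smaller ones. Day 2 values were 44.7, 40.7 and 38.7 CPM in CTL and 36.4, 49 and 45.3 CPM in LIP. It fell by 1.28 ± 0.112 on the log2 scale in CTL (adjusted p = 2.95e-07) and by 1.21 ± 0.112 in LIP (adjusted p = 4.53e-07).

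Suz12, the scaffold that both EZH proteins need, rose less than Ezh2. It was counted at 122, 134 and 110 CPM in CTL and 118, 117 and 105 CPM in LIP on day 0, then at 324, 285 and 337 CPM in CTL and 356, 349 and 305 CPM in LIP on day 2. No library of day 0 reached the level of day 2. The log2 fold change was 1.37 ± 0.108 in CTL (adjusted p = 1.08e-07) and 1.57 ± 0.108 in LIP (adjusted p = 2.94e-08).

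**Figure D2:**
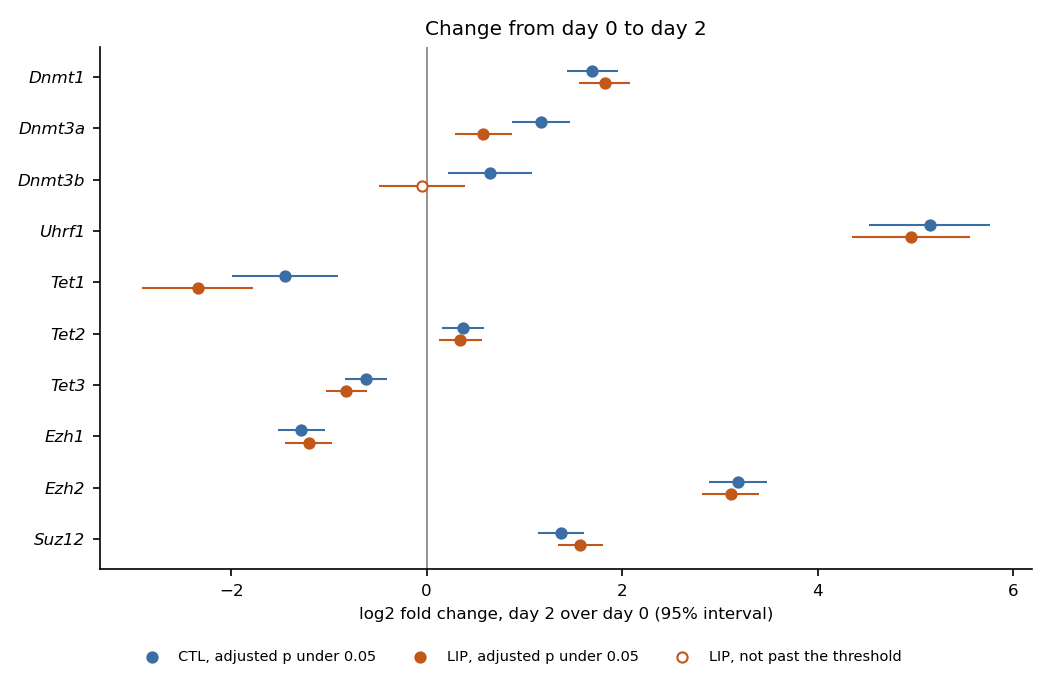
Log2 fold change from day 0 to day 2 (x axis) of each gene (y axis) in CTL and LIP; points are estimates of edgeR's fit, lines 95% intervals, and filled points passed the test. Uhrf1 sits near 5 and Ezh2 near 3 in both groups, while Tet1, Tet3 and Ezh1 lie below 0; Tet2 in LIP moves to -0.02 under library totals alone.

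Compared per kilobase of the canonical transcript, the order of the levels was different on the 2 days. This order depends on the length used. All annotated exons together span 16695 bases in Tet3 and 7299 in Ezh2, against 5944 and 3090 in the canonical transcript. The order with other lengths was not computed. On day 0 Tet3 stood highest, at 79.7 ± 7.80 CPM per kb (SD, n = 3) in CTL and 79.0 ± 1.41 in LIP, followed by Dnmt1 at 33.0 ± 2.40 and 28.4 ± 1.08. Suz12 and Ezh1 came next and overlapped each other in both groups, then Tet2, then Dnmt3a and Ezh2, which overlapped as well. Uhrf1, Tet1 and Dnmt3b were lowest, at 2.41 to 3.10 CPM per kb in CTL and 2.64 to 3.50 in LIP, and each overlapped its neighbour in that order.

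On day 2 Uhrf1, Dnmt1 and Ezh2 had the highest levels per kilobase of the canonical transcript. In CTL these were 108.8 ± 19.2, 106.9 ± 14.9 and 91.3 ± 5.62 CPM per kb, and in LIP 108.9 ± 22.7, 100.3 ± 12.2 and 106.9 ± 13.3, with neighbours overlapping. Suz12 (64.7 ± 5.53 and 69.0 ± 5.72) and Tet3 (51.8 ± 4.32 and 44.7 ± 2.34) followed, each apart from the next. Dnmt3a and Tet2 overlapped, and Ezh1, Dnmt3b and Tet1 were lowest and apart from each other, with Tet1 at 1.03 ± 0.0837 in CTL and 0.573 ± 0.286 in LIP.

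The PRC2 catalytic pair therefore changed places. The ratio of Ezh2 to Ezh1, in CPM per kb, ranged from 0.340 to 0.480 in CTL and 0.467 to 0.558 in LIP on day 0, and from 8.84 to 10.3 in CTL and 8.57 to 13.5 in LIP on day 2. All 6 libraries of day 0 held less Ezh2 than Ezh1, and all 6 of day 2 held at least 8.57 times as much. The ratio does not depend on the scaling between libraries, but its size depends on the transcript lengths used. Between LIP and CTL it differed by 0.32 on the log2 scale on day 0 and by 0.16 on day 2, and the first was 0.16 without CTL 89 and the second -0.03 without LIP 90.

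The ratio of Dnmt1 to Dnmt3a, the maintenance against a de novo enzyme, showed a difference between LIP and CTL that had opposite signs on the 2 days. On day 0 it ranged from 2.80 to 3.24 in CTL and from 2.22 to 2.37 in LIP. On day 2 it ranged from 4.06 to 4.78 in CTL and from 4.99 to 6.31 in LIP. Every LIP library was thus below every CTL library on day 0 and above every CTL library on day 2. The log2 difference of LIP from CTL was -0.38 on day 0 and 0.36 on day 2, which are 0.74 apart. The pattern was seen before any test of it was chosen, so these values are a description and no p is given. The summed heat shock genes separated the groups in the same way, at 1390 to 1530 CPM in LIP against 3050 to 3160 in CTL on day 0 and at 6200 to 6870 against 4790 to 5540 on day 2, and their part in the ratio was not tested.

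**Figure D3:**
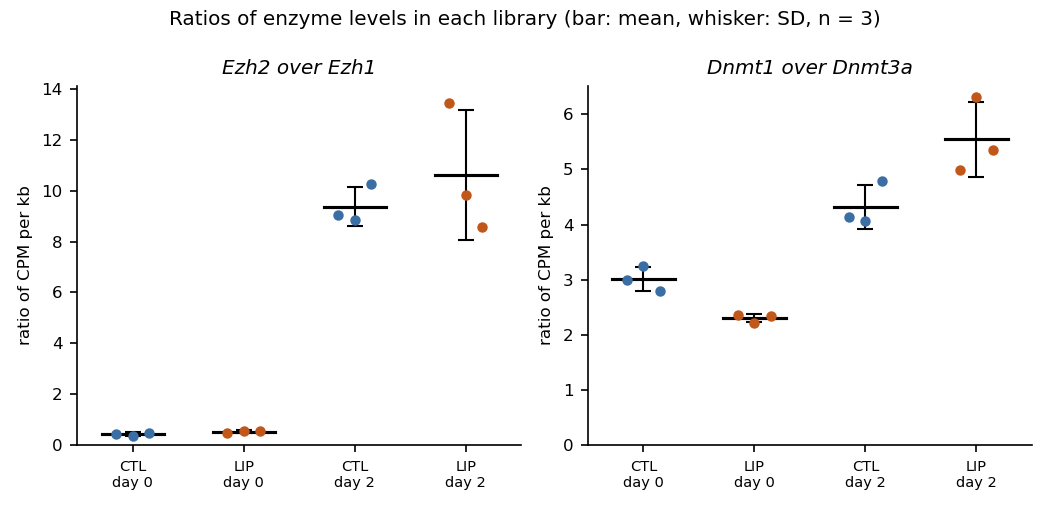
Ratio of Ezh2 to Ezh1 (left) and of Dnmt1 to Dnmt3a (right), in CPM per kb (y axes, from 0), in each library by group (x axis); bars are the mean and whiskers the SD of 3 libraries. The left ratio lies below 1 in all libraries of day 0, and in the right panel LIP lies below CTL on day 0 (2.22 to 2.37 against 2.80 to 3.24) and above it on day 2 (4.99 to 6.31 against 4.06 to 4.78).

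Between LIP and CTL on day 0, no member passed the test: 0 of 10 had an adjusted p under 0.05 in edgeR's quasi-likelihood test, where 0.427% of the 14064 genes tested did, and DESeq2 called 0 members and 206 genes in all. At an unadjusted p under 0.05 there were 3 members, Dnmt1, Dnmt3a and Ezh2, against 13.9% of all genes. Of these, Dnmt1 and Dnmt3a had groups that did not overlap, as had 2688 of the 14064 genes. Dnmt1 had a log2 fold change of -0.21 (95% interval -0.37 to -0.06, adjusted p = 0.224), Dnmt3a of 0.17 (0.03 to 0.31, adjusted p = 0.276) and Ezh2 of 0.31 (0.03 to 0.59, adjusted p = 0.309). The 3 Dnmt3a values of CTL rounded to the same 107 CPM, and all 3 LIP values were higher. Ezh1, Tet2 and Tet3 had log2 fold changes between -0.008 and -0.001, with intervals no wider than -0.19 to 0.17.

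The library CTL 89 of day 0 had the lowest sum of 16 proliferation markers, 466 CPM against 545 to 670 in the other 5. It also had the lowest Uhrf1, Ezh2 and Dnmt3b and the highest Dnmt1, Tet1, Tet2, Tet3 and Suz12. Without it, the log2 fold change of Ezh2 between LIP and CTL on day 0 was 0.18 and that of Uhrf1 was -0.13. The heat shock genes given above also differed between the groups of day 0. The part of either in these values was not tested.

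On day 2, 0 of the 10 members had an adjusted p under 0.05 between LIP and CTL in edgeR's quasi-likelihood test, as did 0% of the 14041 genes, and DESeq2 called 0 members and 489 genes in all. At an unadjusted p under 0.05 there were 3 members, Tet1, Dnmt3a and Dnmt3b, all lower in LIP, against 16.5% of all genes. Tet1 and Tet3 had groups that did not overlap, again lower in LIP, as had 3012 of the 14041 genes. Tet1 had a log2 fold change of -0.84 (95% interval -1.54 to -0.14, adjusted p = 0.234), Dnmt3a of -0.44 (-0.83 to -0.05, adjusted p = 0.261), Dnmt3b of -0.58 (-1.09 to -0.06, adjusted p = 0.261) and Tet3 of -0.23 (-0.50 to 0.05, adjusted p = 0.381). Of all genes tested, 3.5% had a lower log2 fold change than Tet1.

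Single libraries moved these values in both directions. LIP 90 had the highest Tet1, Dnmt3a and Dnmt3b of the LIP group, and its Dnmt3a and Dnmt3b lay within the CTL range. Without it, Dnmt3a (-0.60, adjusted p = 0.0178) and Tet1 (-1.28, adjusted p = 0.00589) passed the test, and so did 2014 of all genes against 0 with it. Without LIP 96 the log2 fold change of Dnmt3a was -0.28 (adjusted p = 0.6), without CTL 97 that of Dnmt3b was -0.33 (adjusted p = 0.435), and without LIP 97 that of Tet1 was -0.58 (adjusted p = 0.448). LIP 90 also had the highest proliferation sum of the LIP group, 7836 CPM against 6488 and 6245 in LIP 96 and LIP 97, and the highest Dnmt1, Uhrf1, Ezh2 and Suz12. Its part in the difference between the groups beyond this comparison was not tested.

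Ezh2 stood at a log2 fold change of 0.22 on day 2 (95% interval -0.07 to 0.50, adjusted p = 0.429), Suz12 at 0.08 (-0.19 to 0.36) and Ezh1 at 0.06 (-0.27 to 0.40). Dnmt1 (-0.10, interval -0.44 to 0.23), Uhrf1 (-0.01, interval -0.42 to 0.40) and Tet2 (-0.05, interval -0.33 to 0.22) lay near 0.

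**Figure D4:**
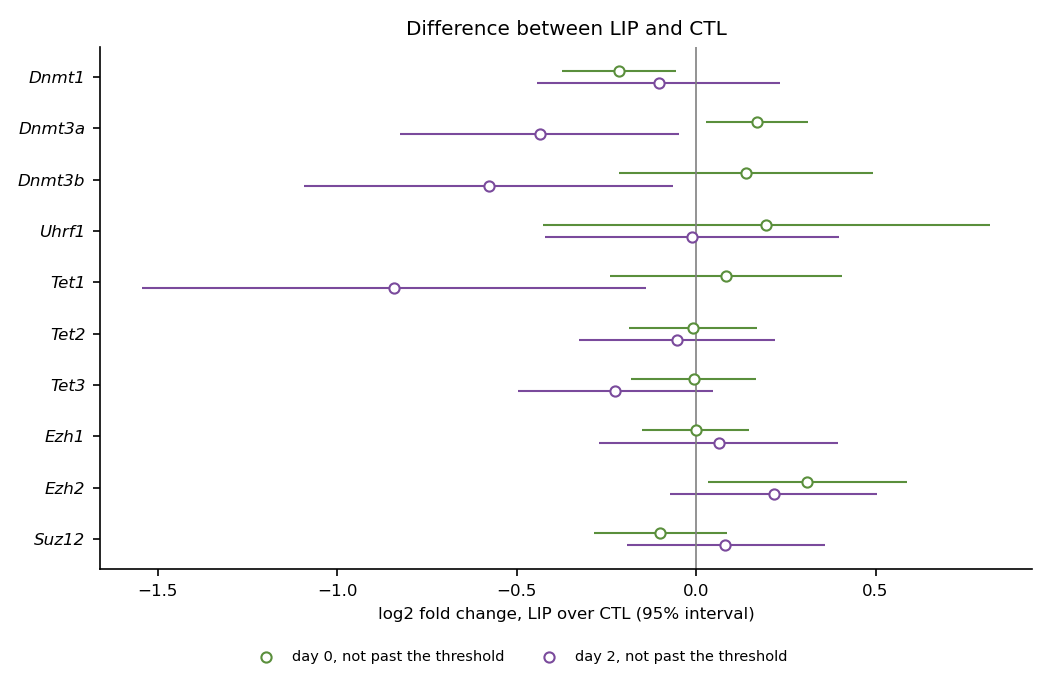
Log2 fold change of LIP over CTL (x axis) of each gene (y axis) on day 0 and day 2; points are estimates of edgeR's fit, lines 95% intervals, and open points did not pass the test. No point is filled, and Tet1, Dnmt3b and Dnmt3a lie lowest on day 2 (-0.84, -0.58 and -0.44).

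The difference of the LIP effect between the days, which is also the difference between LIP and CTL in the change with culture, passed the test for 0 of 10 members in edgeR's quasi-likelihood test and for 0.0517% of the 15475 genes, and DESeq2 called 0 members and 531 genes in all. At an unadjusted p under 0.05 were the same 3 members as on day 2, against 15.9% of all genes. Their values were -0.59 ± 0.191 for Dnmt3a (adjusted p = 0.156), -0.89 ± 0.361 for Tet1 (adjusted p = 0.244) and -0.70 ± 0.286 for Dnmt3b (adjusted p = 0.253). Dnmt3a and Tet1 passed the test without LIP 90 (-0.78, adjusted p = 0.00297, and -1.36, adjusted p = 0.00768) and with no filter on low counts (adjusted p = 0.0494 and 0.0234), settings in which 1596 and 815 of all genes passed against 8. The value nearest 0 with another library left out was -0.44 for Dnmt3a (without LIP 96, adjusted p = 0.259), -0.64 for Tet1 (without LIP 97, adjusted p = 0.386) and -0.45 for Dnmt3b (without CTL 97, adjusted p = 0.386). That Dnmt3b rose in CTL and did not pass the test in LIP is therefore not shown to be a difference between the groups.

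The counts of the lists that follow stand against the same shares of all genes as those of the members, 35.3% higher and 33.7% lower in CTL and 36.6% and 35.2% in LIP. Among the other genes of these pathways, the PRC2 partners mostly rose with culture. Of 9, 7 rose and 1 fell in CTL, and 8 rose and 1 fell in LIP, with a median log2 fold change of 0.98 and 1.15. Phf19, a Polycomb-like accessory protein, rose by 2.74 and 2.64 on the log2 scale in CTL and LIP, Epop, an accessory subunit, by 1.90 and 1.71, and Rbbp7, a histone-binding subunit, by 1.56 and 1.53. Phf1, another Polycomb-like protein, fell by 3.38 and 3.16, to 0.0958 and 0.112 of its day 0 level.

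The PRC1 subunits, which bind or ubiquitinate Polycomb chromatin, split. Of 22, 11 rose and 6 fell in CTL and 11 rose and 5 fell in LIP. Under upper-quartile scaling the split was 6 and 8 in CTL and 8 and 7 in LIP, and with library totals alone 7 and 6 and again 8 and 7. Cbx7, a chromodomain subunit, fell to 0.236 and 0.233 of its day 0 level, while on the log2 scale Kdm2b, which binds CpG islands, rose by 2.04 and 1.78, Pcgf2 by 1.96 and 1.86 and the chromodomain subunit Cbx2 by 1.64 and 1.54.

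Of the 7 enzymes and partners that remove Polycomb marks, 1 rose and 4 fell in CTL, and 1 rose and 3 fell in LIP, and the numbers were 0 and 5 in CTL and 1 and 5 in LIP under upper-quartile scaling. The deubiquitinase Bap1 was the one that rose (0.51 and 0.57 on the log2 scale). Its partner gene Asxl2 fell by 0.83 and 0.89 and the deubiquitinase Mysm1 by 0.55 and 0.61. The histone H3 lysine 27 demethylase Kdm6a fell by 0.43 and 0.40, and its relative Kdm6b fell by 0.64 in CTL and had a log2 fold change of -0.15 in LIP.

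Partners and readers of DNA methylation were measured for 13 of 14 genes, of which 8 rose and 2 fell in each group. Under upper-quartile scaling these were 6 and 3 in CTL and 7 and 5 in LIP. Hells, a chromatin remodeller, rose 12.0-fold in CTL and 10.8-fold in LIP, and Cdca7, which activates it, rose 9.28-fold and 10.3-fold. Tdg, the glycosylase that excises oxidized methylcytosine, rose by 1.68 and 2.01 on the log2 scale, and Zbtb4, a reader of methylated CpG, fell by 1.85 and 1.76. E2F motifs were found in 2 of the 11 promoters in this list, those of Hells and Cdca7. They were also found in 5 of 13 promoters of the proliferation markers described below, in 1 of 8 of the PRC2 partners (Phf19), in 1 of 11 of the Polycomb targets (Cdkn2a) and in 1 of 10 of the germline genes (Sycp3), and in none of the 17 of PRC1 subunits, 6 of erasers and 7 of methyl donor enzymes.

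Of 10 enzymes that supply the methyl donor or handle 2-oxoglutarate, the TET cofactor, 4 rose and 2 fell in each group, against 3 and 4 in CTL and 3 and 3 in LIP under upper-quartile scaling. The share that rose was near that of all genes. Ahcy, which clears the by-product of methyl transfer, rose by 1.65 and 2.47 on the log2 scale. Its counts on day 0 were low, at 18 to 27 in CTL and 13 to 21 in LIP libraries. Idh3a, a subunit of mitochondrial isocitrate dehydrogenase, rose by 1.02 and 0.95. D2hgdh, which removes D-2-hydroxyglutarate, fell by 1.48 and 1.23.

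All 16 proliferation markers rose in both groups, with a median log2 fold change of 3.21 in CTL and 3.29 in LIP. Their summed level went from 466 to 670 CPM in the 6 libraries of day 0 to 6012 to 7836 CPM in the 6 of day 2. Top2a, a topoisomerase of dividing cells, rose 45.4-fold and 34.4-fold, Cdk1 41.3-fold and 29.5-fold, Rrm2 37.2-fold and 27.5-fold and Ccnb1 32.5-fold and 27.0-fold. Uhrf1, at 35.4-fold and 31.0-fold, lay within the range of these 4 in both groups, and the other members that rose, Ezh2 included, rose by less than the list's median in both groups. How far the members' changes go with the share of dividing cells was not tested.

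**Figure D5:**
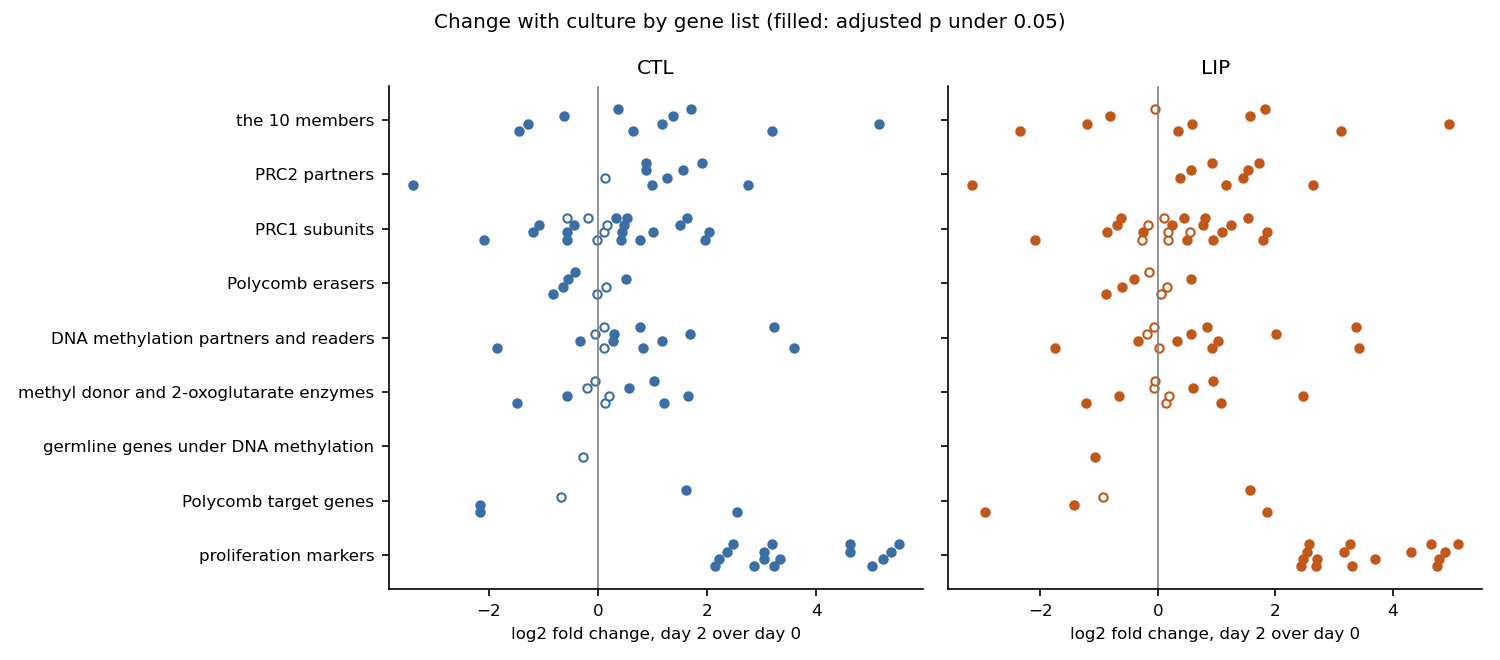
Log2 fold change from day 0 to day 2 (x axis) of every tested gene of each list (y axis) in CTL and LIP; filled points passed the test. All 16 proliferation markers lie above 2 in both groups, whereas the PRC1 subunits lie on both sides of 0, a split that moves from 11 higher and 6 lower to 6 and 8 in CTL under upper-quartile scaling.

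Genes that DNA methylation or Polycomb is known to keep silent were mostly at or near 0. Of 10 germline genes, 5 had 0 counts in all 12 libraries and 8 had at most 3 in any library. Of all 55414 gene records, 26972 also had 0 counts in all 12, so a count of 0 does not set these genes apart. The share of all records with at most 3 or at most 10 counts was not computed. Sycp1, a synaptonemal gene, was the only gene of these with enough counts to be tested, with 58 to 142 counts, a log2 fold change with culture of -0.27 in CTL (adjusted p = 0.315) and a fall of 1.06 in LIP (adjusted p = 0.00115). The difference between these did not pass the test (-0.79, adjusted p = 0.265). Of 14 Polycomb targets, 1 (Hoxa9) had 0 counts in all 12 libraries. In this list 9 had at most 10 counts in any library, among them Cdkn2a (at most 7).

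The lineage factors in that list were expressed and moved in both directions. Tbx21, the Th1 factor, rose by 2.55 and 1.86 on the log2 scale in CTL and LIP, and Gata3, the Th2 factor, by 1.61 and 1.56. Eomes fell by 2.16 and 1.42 and Zbtb16, the factor of innate-like T cells, by 2.15 and 2.94. The sum of 3 NK cell markers, of which Klra8 was at 0 throughout, was also lower after culture: it ranged from 1.93 to 5.53 CPM on day 0 and from 0 to 0.227 on day 2 in CTL, and from 5.24 to 9.49 and from 0.0896 to 1.12 in LIP. Its part in these values was not tested. Between LIP and CTL, and for the difference between the days, 0 genes of these lists passed edgeR's quasi-likelihood test, and between 1 and 4 of a list's genes had an unadjusted p under 0.05 where any had, as had 13.9%, 16.5% and 15.9% of all genes on day 0, on day 2 and for the difference between the days. DESeq2 called 1 methyl donor gene and 1 proliferation marker lower in LIP on day 0 and 0 genes of these lists in the other comparisons. Over all genes it called 206 on day 0, 489 on day 2 and 531 for the difference between the days. Without LIP 90, where 2014 of all genes were called on day 2, 3 PRC1 subunits were called higher and 1 lower in LIP, and 1 gene of each of 5 other lists was called in either direction. Without CTL 94, where 658 of all genes were called on day 0 against 60 with it, 2 proliferation markers were called higher and 1 lower, and 1 methyl donor gene lower. Without CTL 89, where 96 were called, 1 PRC1 subunit was called higher. With no filter on low counts, between 1 and 2 genes of a list were called where any were, with 645, 662 and 815 of all genes called on day 0, on day 2 and for the difference between the days. Those with the smallest p-values in their lists included Mat2a, which makes the methyl donor, on day 0 (log2 fold change -0.34, adjusted p = 0.06), Jarid2, a PRC2 cofactor, on day 0 (-0.19, adjusted p = 0.286), and on day 2 Kdm6b (0.52, adjusted p = 0.244), Kdm2b (-0.33, adjusted p = 0.249) and Eomes (0.91, adjusted p = 0.274).

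Among 15474 other genes, those whose log2 CPM followed a member most closely over the 12 libraries were Msh6, Prim2 and Ide for Dnmt1 (Pearson r 0.997, 0.996 and 0.996), Tk1, Ptpn3 and Hells for Ezh2 (0.998, 0.998 and 0.998) and Ccr9, Phf1 and Rnf32 for Ezh1 (0.997, 0.996 and 0.996). The points share their libraries and fall into the sets of day 0 and day 2, so r is a description of likeness here and carries no test.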

How the data were processed

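The 12 RNA libraries, 3 per group, were assigned to groups by sample title. According to the submitters' processing notes, the authors used FastQC 0.11.9, Trimmomatic 0.38, Bowtie2 and RSEM 1.3.0 with GRCm39, and deposited expected counts per gene without normalization (150-bp paired-end reads of a stranded, rRNA-depleted kit). The study's methods also name HISAT2, another Trimmomatic version and other doses of IL-2 and anti-TCRbeta. The annotation release is not given in the sources used here. The authors' deposited tables per day hold a normalized signal with fold changes and p-values of their own, and only gene symbols and IDs were taken from them; 2 columns of libraries outside the labelled samples were not used. Of the expected counts, 73267 were not whole, and all were rounded. Genes were named from the deposited tables (15174) or GENCODE M39 (54749 of 55414 records found).

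Counts were analysed in R 4.3.3 with edgeR 4.0.16 (filterByExpr, TMM, quasi-likelihood test, Benjamini-Hochberg adjustment over all genes tested, threshold 0.05). LIP and CTL were compared in a fit of the 6 libraries of each day, and days and the interaction in a fit of all 12. The SE was derived from the log2 fold change and the F statistic, and displayed CPM use TMM factors of the 12 libraries, with a prior count of 2 on the log2 scale. Libraries of a group differed by a chi-square per gene of 2.82 to 43.6, so none was a duplicate. Alternatives were RLE and upper-quartile scaling, library totals alone, DESeq2 1.42.0, no filter, another choice of libraries in the fit, and leaving out each library. Scripts were tested on simulated data. Tables and figures were made with Python 3.11.15, pandas 2.3.3 and matplotlib 3.10.9.

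The members, gene lists and comparisons were chosen with earlier results of these data known. Named in the text are the 10 members and, of each list, up to 4 genes that passed the test with the largest change and groups that did not overlap, or else genes of the 2 with the smallest p. Not every gene this selects is reported.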

Additional observations from a re-analysis of the deposited data

Results flagged for a closer look

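The difference of LIP from CTL in the log2 ratio of Dnmt1 to Dnmt3a had opposite signs on the 2 days: it was -0.38 on day 0 and 0.36 on day 2, values that are 0.74 apart. All 3 LIP libraries lay below all CTL libraries on day 0 and above them on day 2. The result was flagged because a permutation p of the group labels fell under 0.05 for the difference between the days. That flag was taken from the same libraries it describes, so it gives no independent support. The ratio was seen before any test of it was chosen, so no p is given and the difference counts as not tested independently. Leaving out any single library gave a difference between the days of 0.64 to 0.81. The sum of the 8 heat shock genes moved with it, with all LIP libraries below all CTL libraries on day 0 (1390 to 1530 against 3050 to 3160 CPM) and above them on day 2 (6200 to 6870 against 4790 to 5540 CPM), and its part in the ratio was not tested. The single-gene tests of the difference between the days did not pass for Dnmt1 (log2 0.13, adjusted p = 0.766) or Dnmt3a (-0.59, adjusted p = 0.156). Groups of 3 libraries are too small for a test of single outlying values.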

How the results depend on the processing

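No paired analysis was possible because the groups compared share at most 1 label number (94 on day 0 and 97 on day 2), and nothing ties the numbers of LIP day 0 and CTL day 2 to the same animal. Each group held 3 libraries, and on day 2 Dnmt3b and Tet1 had at most 185 and 140 counts in a library. The number of members that passed the test between LIP and CTL on day 0 was 0 under every alternative run. On day 2 it was 0 to 2 when 1 library was left out, with 2 without LIP 90 and 0 under all other alternatives. For the difference between the days it was 0 to 2 when 1 library was left out and 2 with no filter on low counts. Over all genes, the number called between LIP and CTL was 60 on day 0 (43 to 645 by scaling, tool or filter, 12 with all 12 libraries in 1 fit, 13 to 658 without 1 library), 0 on day 2 (0 to 662, 775 and 0 to 2014) and 8 for the difference between the days (8 to 815, and 1 to 1596 without 1 library). The cause was not tested. With culture, 9 to 10 members passed in CTL and 9 in LIP when 1 library was left out, and other alternatives gave 8 to 10 and 7 to 9.

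Signs turned for members that had not passed the test, among them Uhrf1 between LIP and CTL, and for Tet2 with culture in LIP. Under upper-quartile scaling, library totals alone and no filter, the log2 fold change between LIP and CTL on day 0 was 0.008, 0.067 and 0.006 for Ezh1 and 0.003, 0.062 and 0.000 for Tet3, and under the first 2 it was 0.002 and 0.061 for Tet2. On day 2 Uhrf1 was at 0.003 with RLE and DESeq2, 0.026 with no filter and 0.001 with all 12 libraries in 1 fit, and with library totals alone Ezh1 was at -0.026 and Suz12 at -0.005. Library totals alone also turned Tet2 with culture in LIP (-0.016) and, for the difference between the days, Dnmt1 (-0.044) and Ezh1 (-0.094). Leaving out 1 library gave on day 0 between -0.13 and 0.52 for Uhrf1, -0.06 and 0.32 for Tet1, -0.083 and 0.057 for Tet2, -0.086 and 0.049 for Tet3 and -0.027 and 0.021 for Ezh1. On day 2 it gave between -0.20 and 0.001 for Dnmt1, -0.16 and 0.14 for Uhrf1, -0.11 and 0.017 for Tet2 and -0.017 and 0.20 for Ezh1. Dnmt3b with culture in LIP ranged from -0.19 to 0.048. For the difference between the days the ranges were -0.53 to 0.13 (Uhrf1), -0.095 to 0.045 (Tet2), -0.012 to 0.20 (Ezh1) and -0.20 to 0.052 (Ezh2), and the LIP effect on the ratio of Ezh2 to Ezh1 on day 2 ranged from -0.027 to 0.30.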
